A study of Mus musculus with 6 samples.

Results

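Dendritic epidermal T cells (DETCs) were examined in single-cell RNA sequencing of dorsal skin from wildtype adult male FVB mice whose hair had been removed to start a new hair cycle. There were 6 libraries, 1 for each time after depilation (0 h, then 4 h and 16 h, then 2 d, followed by 4 d and lastly 6 d), and each held cells of 2 mice aged postnatal day 55 to 57. Series of 6 values below run in this order of time. The skin of the 2 mice was digested separately and their cells were mixed in equal numbers, so the mice of a library could not be told apart and the time points had no replicates. No group carried a mutation, a transgene or a drug, and all 6 groups, 0 h included, are labelled as post depilation.

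DETCs were chosen by their UMIs, which are counts of single transcript molecules. A barcode had to hold 500 to 7000 detected genes and at most 10% mitochondrial UMIs. It also had to carry at least 4 UMIs summed over Cd3e, Cd3g, Cd3d and Trdc, making up at least 12 per 10000 of its UMIs, and at most 2 UMIs summed over Icos, Il7r and Ltb. This took 2760 of the 55177 cells that passed the filters (5.0%), out of 61031 deposited barcodes. The 7 genes of this rule chose the cells and are therefore given as description only.

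DETCs are the gamma-delta T cells of mouse epidermis. They arise from fetal thymus precursors with a nearly invariant receptor (V gamma 5 with V delta 1), settle among keratinocytes with long dendrites, and renew themselves there. Through NKG2D, JAML and their T cell receptor they sense stressed or wounded keratinocytes, and they are known for cytotoxic granules, for growth factors that act on keratinocytes and for a part in wound repair. Dermal gamma-delta T cells that make IL-17, and alpha-beta T cells, share the skin with them.

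The libraries held in all 73894299, 72634390, 112370376, 99686327, 95678280 and 88632160 UMIs. DETCs were small in RNA content. Their median was 2799, 2275, 2334.5, 2098, 2501 and 2597 UMIs. The remaining cells had medians of 6556.5 to 11023.5 UMIs. The UMIs of all DETCs of a library were summed, and levels are in CPM, the UMIs of a gene per 1000000 UMIs of that sum. The sums held 779599, 1031945, 822051, 3127377, 2972099 and 956964 UMIs in order of time. Intervals on CPM are exact Poisson 95% intervals and those on shares exact Clopper-Pearson 95% intervals, and both cover counting error only, not the difference between mice.

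The promoters of 4 genes that the results below turn on are shown first, as RefSeq gives them for GRCm38.p6. They are the granule protease gene Gzmb, the costimulatory receptor gene Tnfrsf9 and the chemokine gene Xcl1, each higher in some later libraries than at 0 h, and Top2a, a cell division gene that was highest at 4 d. Each is the 250 bases before the transcription start, 5′ to 3′ on the gene's strand. For Tnfrsf9 the table held 2 start sites and the upstream one is printed. In the first 3 sequences capitals mark the AP-1 motif TGANTCA, the RUNX motif TGTGGT and the NFAT core GGAAA, and in Top2a they mark CCAAT, on either strand and with no overlaps between them.
Gzmb (chr14:56262335-56262584, minus strand): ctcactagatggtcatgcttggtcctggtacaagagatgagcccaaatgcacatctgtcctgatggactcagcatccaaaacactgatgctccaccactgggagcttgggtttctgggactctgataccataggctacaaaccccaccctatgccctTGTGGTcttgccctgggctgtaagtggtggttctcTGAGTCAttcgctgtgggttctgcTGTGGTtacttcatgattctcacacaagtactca
Tnfrsf9 (chr4:150919905-150920154, plus strand): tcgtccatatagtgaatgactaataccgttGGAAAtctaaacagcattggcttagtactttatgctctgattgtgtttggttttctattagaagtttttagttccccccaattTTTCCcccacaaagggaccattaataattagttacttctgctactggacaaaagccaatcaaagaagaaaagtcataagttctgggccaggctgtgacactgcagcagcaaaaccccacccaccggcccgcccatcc
Xcl1 (chr1:164935523-164935772, minus strand): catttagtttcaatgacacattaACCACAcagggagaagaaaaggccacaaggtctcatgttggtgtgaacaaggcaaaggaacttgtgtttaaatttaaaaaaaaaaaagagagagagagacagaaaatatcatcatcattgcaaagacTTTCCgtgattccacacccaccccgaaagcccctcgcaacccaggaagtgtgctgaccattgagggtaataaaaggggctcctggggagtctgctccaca
Top2a (chr11:99024190-99024439, minus strand): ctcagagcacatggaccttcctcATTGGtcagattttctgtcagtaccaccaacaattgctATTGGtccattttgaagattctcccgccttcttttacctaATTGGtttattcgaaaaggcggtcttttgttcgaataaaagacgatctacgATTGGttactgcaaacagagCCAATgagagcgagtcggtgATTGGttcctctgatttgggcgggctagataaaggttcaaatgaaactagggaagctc

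Among the 32851 RefSeq windows of the same length, 6.75% held the AP-1 motif, 14.0% the RUNX motif, 55.6% the NFAT core and 33.8% CCAAT. Gzmb held 1 AP-1 match, whose first base lies 58 bases before the start, and 2 RUNX matches. Xcl1 held 1 RUNX match and 1 NFAT core match, and Tnfrsf9 held 2 NFAT core matches. Top2a held 6 CCAAT matches, and the Tnfrsf9 window held 3 that are not in capitals. Of the cycling markers used below, 9 of 10 had a window and 7 of them (77.8%) held CCAAT in any of their windows. That is a share of genes, while the shares above are of single windows, so they are not like measures. A match is a run of letters and says nothing about binding, and no match says only that the letters are not in this window.

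Summed UMIs of the 4 T cell genes ran from 4 to 145 with a median of 38, and their rate ran from 12 to 461 per 10000 UMIs with a median of 159. Just inside, 3 members had exactly 4 such UMIs and 26 had 12 to 15 per 10000. Just outside, 4 barcodes had 3 UMIs and 24 had 9 to 12 per 10000. For the second limit, 2023 members had 0 UMIs of Icos, Il7r and Ltb, 534 had 1 and 203 had 2, while 98 lymphocytes stood just outside with 3.

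Genes that the rule did not use were those known for DETCs. Ctla2a (chr13:60934155-60936625, minus strand, in GENCODE M21 on GRCm38), a cysteine protease inhibitor, was at 12182 (95% interval 11938 to 12429), 18333, 11384, 12867, 11220 and 10919 CPM. In the remaining cells it ranged from 2.93 to 19.0 CPM, and in Langerhans cells from 0 to 12.4 CPM. Nkg7, a protein of cytotoxic granules, stood between 1237 CPM at 6 d and 1910 CPM at 4 h, against 0.466 to 2.29 CPM in the remaining cells. Fcer1g, a signalling adaptor, and Cd7, a surface receptor of T and NK cells, ranged from 1172 to 1720 and from 1058 to 2104 CPM. Both were at or under 2.80 CPM in the remaining cells. Langerhans cells also carried Fcer1g, at 402 to 791 CPM.

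Transcripts of the receptor chains of DETCs were found, those of V gamma 5 in a minority of members. Trdv4 was also found in the other lymphocytes described below, so it does not set DETCs apart from them. Of the 2760 members, 98.6% had a UMI of Trdc, which the rule used, 65.9% one of Trdv4, the gene of V delta 1, and 16.5% one of Tcrg-V5. By library the Trdv4 share was 77.3%, 80.6%, 73.3%, 56.4%, 61.8% and 73.6%. After every cell was thinned to 1000 UMIs it was 44.3%, 54.6%, 47.6%, 32.6%, 32.3% and 45.2%. The Trdv4 share was thus lowest at 2 d and 4 d, which held the largest DETC shares. Thinned shares of Tcrg-C1, a gamma chain constant gene, were 60.3% and 51.1% there. In the other libraries they ran from 42.9% to 57.1%. The cause was not tested. The share of the remaining cells with a Trdv4 UMI was 0.0752% to 0.269% by library, although those cells were deeper. Trac, the alpha chain constant gene, was found in 3.26% of members. Cd4 was found in 0 of 2760 members, which at a floor of 3 counts allows a share of up to 0.109% for members with a Cd4 UMI but sets no limit on members that express it, and a gene of CD8 in 5. Trbc1 and Trbc2 transcripts were present at 353 to 1139 CPM, with Trac at 12.5 to 26.2 CPM in the same sums. Among the genes often reported for DETCs, Itgae, Klrk1, Jaml and Cd244a were present in every library, while Ccr10, Gpr15 and Sema4d were at or under 10.9 CPM and Cd200r1 had 0 UMIs in all 6.

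**Figure D1:**
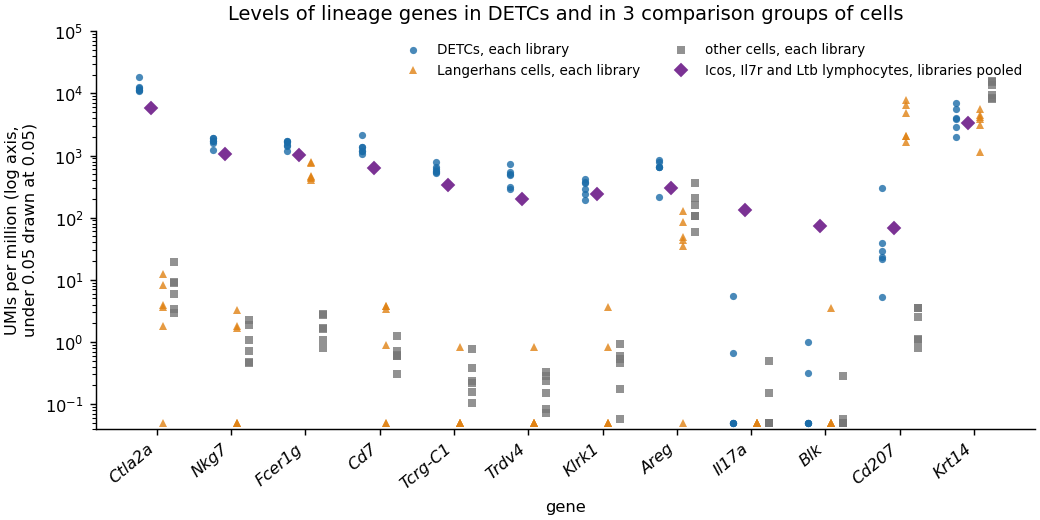
CPM (log axis) of 12 lineage genes, with 1 point per library for DETCs, Langerhans cells and the remaining cells, and 1 point for the pooled lymphocytes that carried 3 or more UMIs of Icos, Il7r and Ltb. Ctla2a, Nkg7, Cd7, Tcrg-C1 and Trdv4 stand above 100 CPM in the DETCs of all 6 libraries and below 20 in Langerhans cells and the remaining cells, while Il17a and Blk stand higher in the pooled lymphocytes than in DETCs.

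The nearest cells in the data were the 301 lymphocytes that met the same T cell limits but held 3 or more UMIs of Icos, Il7r and Ltb. Their sums were far shallower, with 34684 UMIs at 0 h against 779599 in DETCs. The 10 genes that stood lowest in DETCs included the IL-17 genes Il17a (1.96 CPM pooled over libraries, against 135 CPM) and Il17f (0.413 against 126 CPM), the scavenger receptor gene 5830411N06Rik (1.44 against 136 CPM), the kinase gene Blk (0.413 against 73.4 CPM) and Ikzf3, Il18r1 and Gpr183. The 10 that stood highest included the bicarbonate transporter Slc4a4 (41.6 against 7.26 CPM), Wscd1 (25.4 against 5.65 CPM), Zdbf2 and Arfgef3. The pooled lymphocytes also held genes that were high in DETCs, with Ctla2a at 5896, Nkg7 at 1069 and Trdv4 at 202 CPM. The 0 h library held only 10 of them, and this comparison carries no test.

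Barcodes of other cells within the sums were measured before the time course. Keratinocyte UMIs (12 marker genes) made up more than 1% of the UMIs in 408 members (14.8%), and the share was 8.44%, 8.20%, 11.2%, 18.6%, 16.4% and 14.7%. Summed over the list, keratinocyte markers were at 12048, 13845, 26208, 24570, 16443 and 14186 CPM of the DETC sums, with Lgals7 the most abundant. Of the members, 14.1% were among the barcodes with the highest doublet scores, against 8.47% of all cells that passed the filters. The Langerhans cell markers summed to 2391 CPM at 0 h and 540 CPM at 6 d, and single barcodes weighed heavily in them. At 0 h, 205 of the 237 UMIs of Cd207 and 350 of the 634 UMIs of Cd74 came from 1 member. Macrophage and mast cell markers summed to 27 to 34 CPM, and 6 of the 10 had 0 UMIs in every library. Melanocyte and fibroblast or endothelial markers reached 120 and 177 CPM at 4 d and were at 20.1 and 6.40 CPM at 2 d and lower at the other times, led by Dct and Dcn. Results that rest on such barcodes are given without them too. In all, 862 barcodes had a sequence that also occurred in another library, 43 of them members, and 0 such sequences were DETCs in more than 1 library.

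DETCs made up the largest share of cells at 2 d. They were 925 of 9534 cells there (9.70%, 95% interval 9.12 to 10.3), and 739 of 12410 at 4 d (5.95%, 5.54 to 6.39). Before these times they were 225 of 6925 cells at 0 h (3.25%, 2.84 to 3.69), 366 of 7663 at 4 h (4.78%, 4.31 to 5.28) and 232 of 8729 at 16 h (2.66%, 2.33 to 3.02). The 6 d library held 273 of 9916 (2.75%, 2.44 to 3.09). The 2 d share was 3.65 times that at 16 h, and the intervals at 2 d and 4 d overlapped with no other library. Without members over 1% keratinocyte UMIs the shares were 2.97%, 4.38%, 2.36%, 7.90%, 4.98% and 2.35%. Among members with 0 UMIs of Icos, Il7r and Ltb they were 2.71%, 3.29%, 1.81%, 8.11%, 3.38% and 2.35%. By that count 2 d still held the largest share, but 4 d was close to 4 h, so the height of the 4 d share depended on this limit. A share also moves with the number of other cells recovered from the skin, and with 1 library per time point the difference between mice cannot be told apart from time.

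**Figure D2:**
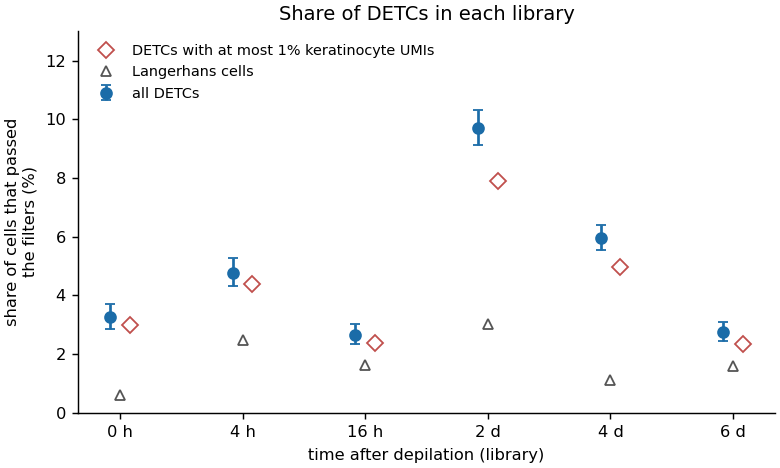
Share of the cells that passed the filters (%) in each library that were DETCs (filled circles with exact 95% intervals), DETCs with at most 1% keratinocyte UMIs (diamonds) and Langerhans cells (triangles). The DETC share stands at 9.70% at 2 d, above all other libraries, and lies between 2.66% and 5.95% elsewhere.

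The other immune cells counted in the skin did not give a fixed proportion to DETCs. There were 5.23, 1.92, 1.65, 3.21, 5.28 and 1.74 DETCs per Langerhans cell. Of the cells that met the T cell limits, 95.7%, 92.0%, 86.6%, 96.3%, 83.0% and 88.3% were DETCs. The lowest of these was at 4 d, where 151 of the 301 other lymphocytes were found.

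To ask which DETC genes moved over the 6 days, the summed counts were fitted with a smooth curve in hours in edgeR. Of 8625 genes tested, 0 (0%) were called at a false discovery rate of 0.05, while 268 had an unadjusted p under 0.05 and the likelihood ratio test of DESeq2 called 27. With 6 libraries the fit keeps 2 residual degrees of freedom. The curve was also compared in edgeR between DETCs and Langerhans cells of the same libraries, with library as block. There 0 of 8231 genes were called as different, with 278 at an unadjusted p under 0.05. The absence of calls with so few libraries does not show that the curves were alike. The levels below are therefore descriptions of single libraries. A gene is counted as higher or lower than at 0 h where its CPM differed by 2-fold or more and its Poisson intervals did not overlap.

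By that count, 9.53% of the 8625 genes were higher and 4.46% lower at 4 h than at 0 h, and 8.22% and 3.54% at 16 h. At 2 d the shares were 5.92% and 3.62%, at 4 d 19.6% and 7.62%, and lastly 2.79% and 1.43% at 6 d. The scaling moved the balance between them. Scaled by the total, 68.1%, 69.9%, 62.1%, 72.0% and 66.2% of the counted genes were higher, in order of time, and with TMM scaling 36.7%, 30.6%, 45.0%, 44.4% and 51.3%. The median gene stood above 0 h by 0.25, 0.32, 0.14, 0.33 and 0.10 on the log2 scale under the total. Across genes the log2 levels of 0 h and 6 d correlated at 0.942 and those of 0 h and 4 d at 0.849, the lowest pair of libraries. These correlations are across genes, which are not independent replicates.

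The costimulatory receptor gene Tnfrsf9 and the cytotoxic genes Gzmb and Prf1 stood highest at 4 h. Tnfrsf9 encodes 4-1BB (CD137), a costimulatory receptor that activated T cells put on their surface. It was at 41.0 (95% interval 28.1 to 57.9), 622 (575 to 672), 271, 305, 182 and 108 CPM. The intervals of all later libraries lay above that at 0 h, and the level at 4 h was 15.2 times that at 0 h (counting interval 10.6 to 22.3). Its edgeR time course was not called (adjusted p = 1.00). Members with a UMI of Tnfrsf9 were 7.11% at 0 h and 55.7% at 4 h, and 2.71% and 38.8% after every cell was thinned to 1000 UMIs. In the remaining cells the unthinned shares were 0.105% and 0.495%, at median depths of 8754 and 8813.5 UMIs. Langerhans cells held 0 CPM of it at 0 h and 31.6 CPM at 4 h.

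Gzmb, the granule protease granzyme B, was nearly absent at 0 h. The 6 sums held 1, 330, 39, 185, 211 and 53 UMIs, found in 1, 50, 6, 55, 108 and 14 members. As levels these were 1.28, 320, 47.4, 59.2, 71.0 and 55.4 CPM. The 4 h level was 249 times that at 0 h, with a counting interval of 44.4 to 9876, since it rests on a single UMI at 0 h. One member gave 66 of the 330 UMIs at 4 h, and without it the level was 256 CPM. As shares of members these were 0.444%, 13.7%, 2.59%, 5.95%, 14.6% and 5.13%, and after thinning to 1000 UMIs 0%, 9.97%, 1.30%, 3.09%, 6.28% and 2.96%. Langerhans cells had 0 UMIs of Gzmb in every library, and 0.141% of the remaining cells at 4 h had one.

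Perforin, which forms the pores through which granzymes enter a target cell, was also highest at 4 h, from a higher start. Prf1 (chr10:61297833-61304680, plus strand, GRCm38) was at 409 (366 to 457), 924 (867 to 985), 668, 441, 419 and 212 (184 to 243) CPM. Levels at 0 h, 2 d and 4 d did not differ beyond their intervals. Serpinb9, which protects cytotoxic cells from granzyme B, was at 53.9, 162, 64.5, 62.7, 12.4 and 79.4 CPM, with the lowest value at 4 d. Of the 12 measured genes of the cytotoxic granule list, 3 were higher and 0 lower at 4 h, where 9.53% of all genes were higher and 4.46% lower. With TMM scaling Prf1 at 4 h was 1.87 times the 0 h level and no longer reached 2-fold, which left 2, where 4.29% of all genes were higher. Gzma, Gzmd, Gzme, Gzmg and Gzmk were at or near 0 throughout, with 0 UMIs in every library for the last 4.

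Some receptors and transcription factors of T cells were also high at 4 h. Cd2, an adhesion receptor that lowers the threshold of T cell activation, was at 897, 1518, 609, 528, 411 and 695 CPM in order of time. Tcf7, a transcription factor of less differentiated T cells, was at 131 (107 to 159), 350 (315 to 388), 220, 147, 134 and 138 CPM. Ahr, the aryl hydrocarbon receptor that DETCs need to persist in the epidermis, was at 178, 428, 309, 237, 205 and 255 CPM. Ifngr1, a chain of the interferon gamma receptor, was at 167, 419, 230, 135, 86.8 and 158 CPM. Kit, the receptor of stem cell factor, went from 2.57 CPM at 0 h to 53.3 CPM at 4 h, and Tnfrsf18, which encodes GITR, from 128 to 370 CPM. Each of these 6 genes had its highest value in the 4 h library. Cd2 was less than 2-fold above 0 h there, and with TMM scaling Ahr also fell short of 2-fold. Over whole lists at 4 h, of 15 measured transcription factor genes 3 were higher and 2 lower, with a median log2 ratio of -0.04, and of 13 cytokine receptor genes 1 was higher and 0 lower. Over all genes 9.53% were higher and 4.46% lower, with a median of 0.25. With TMM scaling 2 transcription factor genes were higher and 2 lower, and 1 cytokine receptor gene was higher and 0 lower. Over all genes 4.29% were then higher and 7.41% lower.

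**Figure D3:**
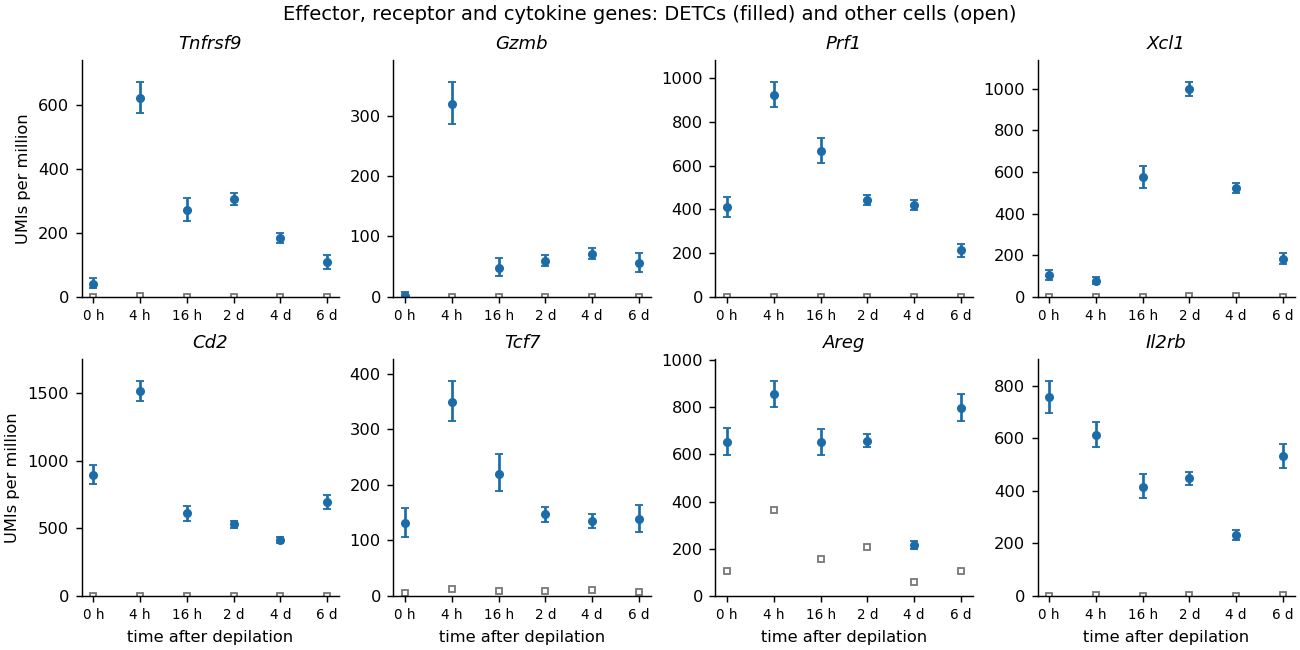
CPM of 8 genes in the DETC sum of each library (filled circles with exact Poisson 95% intervals) and in the remaining cells (open squares). Tnfrsf9, Gzmb, Prf1, Cd2 and Tcf7 stand highest at 4 h, Xcl1 at 2 d and Il2rb at 0 h. Areg stands at 856 CPM at 4 h and 799 CPM at 6 d, with overlapping intervals. Areg and Il2rb stand lowest at 4 d.

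Lymphotactin came later. Xcl1, a chemokine that attracts XCR1-bearing dendritic cells, was at 103 (81.4 to 128), 76.6 (60.6 to 95.4), 575 (525 to 630), 999 (964 to 1034), 523 (497 to 549) and 182 (156 to 211) CPM. The values at 0 h and 4 h overlapped, and the 2 d level was 9.73 times that at 0 h (7.79 to 12.3). Its time course had an unadjusted p of 0.00199 and an adjusted p of 0.727 in edgeR. After thinning, 6.79%, 6.65%, 20.8%, 35.1%, 35.5% and 13.3% of members had a UMI, so the share was as high at 4 d as at 2 d. In the remaining cells the unthinned share was at most 0.905%, at 2 d.

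In 3 of the 6 libraries, members with Xcl1 had Tnfrsf9 more often than members without it. At 2 d, 59.7% of the 457 members with Xcl1 also had Tnfrsf9 (55.1 to 64.3), against 31.2% of the 468 without (27.0 to 35.6). The same shares were 67.2% and 25.9% at 16 h and 49.6% and 27.3% at 4 d. Intervals overlapped in the other libraries, with 10.3% and 6.63% at 0 h, then 60.5% and 55.2% at 4 h, and 24.3% and 20.6% at 6 d. The median depths of the members with and without Xcl1 were 2182 and 2035.5 UMIs at 2 d, and 2732 and 2216.5 UMIs at 4 d. At 4 h, 22% (11) of the 50 members with Gzmb had a UMI of the related granzyme gene Gzmc, against 1.90% of the 316 without, while Prf1 was found in 78% and 77.8%. These are cells of 1 library and not replicates.

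Cytokines and growth factors were few. Areg (chr5:91139599-91148432, plus strand, GRCm38), amphiregulin, a ligand of the EGF receptor on keratinocytes, was at 653, 856, 652, 658, 216 (200 to 233) and 799 CPM. The 4 d level was 0.331 times that at 0 h (0.294 to 0.372), and the remaining cells were at 57.8 CPM at 4 d and 105 CPM at 0 h. Il13, the type 2 cytokine, was found at 31.3 to 64.9 CPM, in 7.14% to 17.3% of members, and its interval at 4 d (56.1 to 74.8 CPM) lay above that at 0 h (23.9 to 51.9 CPM), less than 2-fold apart. Il2, the T cell growth factor, was at 70.6 CPM at 16 h against 6.41 CPM at 0 h, but 42 of its 58 UMIs at 16 h came from 1 member and without it the level was 19.5 CPM. At 2 d Il2 was at 36.8 CPM (30.4 to 44.1), which was 5.73 times the 0 h level (2.39 to 18.0). It was found there in 50 members, of which the richest held 16 of 115 UMIs, and without that member the level was 31.7 CPM. Gzmc at 6 d rested mostly on 1 member, with 89 of 112 UMIs. Ifng, Igf1, Fgf7 and Fgf10 stayed at or under 2.36 CPM, and Il4, Il5 and Il22 had 0 UMIs in all libraries. Of the 10 measured genes of the cytokine list, 0 were higher and 0 lower at 4 h (0 and 2 with TMM scaling). At 4 d 3 were higher and 3 lower (1 and 4 with TMM scaling), where 19.6% of all genes were higher and 7.62% lower (10.5% and 13.2% with TMM scaling).

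Several receptor genes of T cells had their lowest values at 4 d. Il2rb, the IL-2 and IL-15 receptor chain on which DETCs depend, was at 757, 614, 416, 447, 231 and 532 CPM. Il4ra was at 131, 149, 74.2, 78.0, 18.8 and 175 CPM, and Havcr2, which encodes TIM-3, at 264 CPM at 0 h and 51.1 CPM at 4 d. The 4 d interval of each of these 3 genes lay below those of the other 5 libraries. Among the 13 measured cytokine receptor genes 0 were higher and 3 lower at 4 d, with a median log2 ratio of -0.45, and with TMM scaling 5 were lower. Over all genes 19.6% were higher and 7.62% lower with a median of 0.33, and with TMM scaling 13.2% were lower. In members with 0 UMIs of 8 cell cycle markers, Areg was at 292, Il2rb at 289, Havcr2 at 59.4 and Il4ra at 24.4 CPM at 4 d, each below its value in the same kind of members of all other libraries. Having 0 UMIs of these markers at this depth does not show that a cell was not dividing.

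Most cell cycle genes stood highest at 4 d. Mki67, the proliferation antigen, was at 16.7 (8.88 to 28.5), 3.88, 63.3, 33.9, 244 (227 to 263) and 104 (85.0 to 127) CPM. Top2a, the topoisomerase of dividing cells, was at 15.4, 1.94, 91.2, 59.2, 317 and 87.8 CPM, and Pclaf, a PCNA partner in DNA replication, at 3.85, 0.969, 40.1, 46.7, 233 and 88.8 CPM. At 4 d, 9 of the 10 cycling markers, 17 of the 20 measured S phase genes and 7 of the 8 measured histone genes were higher than at 0 h, against 19.6% of all genes. Without members over 1% keratinocyte UMIs the counts were 9, 17 and 6. The same was not so at 16 h, where 8 of the 10 cycling markers were higher in all members and 0 without those members, against 8.22% and 6.35% of all genes. Nor was it at 2 d, with 7 in all members and 0 without those members, against 5.92% and 4.45% of all genes. At 6 d the counts were 10 and 6, against 2.79% and 2.38% of all genes. Without those members Top2a at 16 h was at 14.4 CPM, below its 19.4 CPM at 0 h.

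The share of cycling DETCs depended on which markers were counted. With at least 2 UMIs of 10 cycling markers after thinning to 1000 UMIs, 12.7%, 19.7%, 7.36%, 19.4%, 28.4% and 34.1% of members were counted as cycling. Cenpa and Hmgb2, which encode a centromere histone and a chromatin protein, were present where the other markers were near 0. At 4 h, Cenpa was at 340 CPM while Cenpf, Ube2c and Birc5 had 0 UMIs, and at 6 d Cenpa reached 422 CPM. Without Cenpa and Hmgb2 the share was 1.36% (3 of 221 cells, 0.281 to 3.92), 0.277% (1 of 361), 1.73% (4 of 231), 2.21% (20 of 905), 17.9% (128 of 716, 15.1 to 20.9) and 7.78% (21 of 270, 4.88 to 11.6). Without members over 1% keratinocyte UMIs it was 0.485% at 16 h (1 of 206), 1.22% at 2 d (9 of 737), 17.3% at 4 d and 7.39% at 6 d. By this count the intervals at 4 d and 6 d lay above those of the 4 earlier libraries.

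Other cells of the same libraries were cycling too. By the 8 markers, Langerhans cells were at 0%, 0.524%, 2.84%, 5.21%, 18.7% and 5.10%, and the remaining cells at 5.91%, 1.71%, 12.7%, 11.0%, 16.2% and 9.62%. At 0 h, 16 h and 2 d the DETC share was below that of the remaining cells with intervals apart. At 4 d the DETC share overlapped with those of Langerhans cells and of the remaining cells. At 6 d the share of the remaining cells also lay within the DETC interval.

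**Figure D4:**
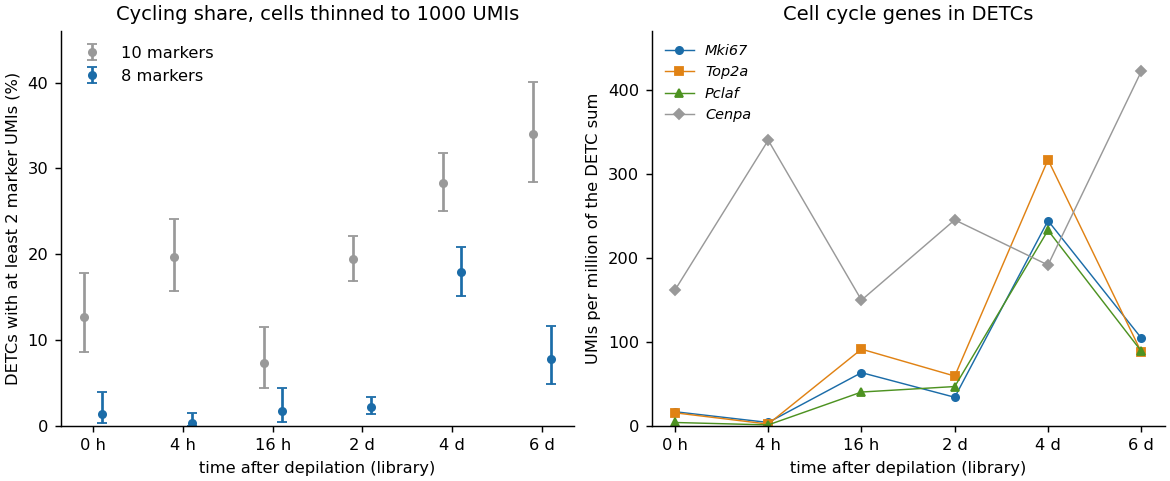
Left, share of DETCs with at least 2 UMIs of 10 or of 8 cycling markers after thinning to 1000 UMIs (%, with exact 95% intervals). Right, CPM of Mki67, Top2a, Pclaf and Cenpa in the DETC sums: the first 3 peak at 4 d, at 244, 317 and 233 CPM, and Cenpa at 6 d, at 422 CPM.

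A group of genes stood highest at 0 h and partly again at 6 d. Cwc25, a splicing factor gene, was at 2159 (2057 to 2264), 224, 253, 357, 118 and 847 CPM. Cdk11b, a cyclin-dependent kinase linked to splicing, was at 2538, 658, 555, 383, 348 and 1378 CPM. Zeb1, a transcriptional repressor, was at 1068, 420, 173, 394, 63.6 and 563 CPM, and Crem, a cAMP-responsive regulator, at 881, 291, 167, 221, 49.5 and 356 CPM. Jmy, Ss18l1 and Bysl shared a first value above all later ones. In the remaining cells Cwc25 ranged from 19.0 to 27.0 CPM and Zeb1 from 0.290 to 1.63 CPM, while in Langerhans cells Cwc25 was at 87.4 CPM at 0 h and 17.4 to 51.8 CPM later. Langerhans cells shared the highest value at 0 h and the lowest at 4 d for Zeb1 (310, 209, 55.4, 82.4, 29.3 and 216 CPM), Crem (115 CPM at 0 h and 10.1 at 4 d) and Jmy (318 CPM at 0 h and 42.1 at 4 d). They did not for Cdk11b (83.4 CPM at 0 h and 102 at 4 h) or Bysl (3.97 CPM at 0 h and 48.3 at 4 h). Rrm1, a subunit of the enzyme that makes DNA precursors, was at 607, 63.0, 81.5, 79.3, 116 and 215 CPM, so that this S phase gene was highest at 0 h.

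Some stress and early response genes stood lower in later libraries than at 0 h. The nuclear receptors Nr4a2 and Nr4a3, which T cell receptor signals induce, were at 676 and 584 CPM at 0 h, 280 and 240 at 4 h, and 139 and 97.2 at 4 d. Fosl2, an AP-1 subunit, was at 976, 537, 521, 555, 212 and 624 CPM. Hk2, hexokinase 2, was at 693 CPM at 0 h and 142 at 4 h, and Hspa5, the chaperone BiP, at 1405, 643, 585, 832, 577 and 1535 CPM. Of the 21 measured immediate early genes, many of which also respond to tissue digestion, 0 were higher and 2 lower at 4 h, and with TMM scaling 8 were lower. At 4 d 0 were higher and 6 lower, where 19.6% of all genes were higher and 7.62% lower. Of the 15 heat shock genes, 1 was higher and 5 lower at 4 h, or 0 and 6 with TMM scaling. The study's methods describe one digestion for telogen skin, with trypsin, and another for anagen skin, with collagenase and hyaluronidase before trypsin. Which of them served each single-cell library is not given in the sources used here, so its part in these values and in the cell shares was not tested. Among 26 measured activation and costimulation genes, 3 were higher and 7 lower at 4 h, or 3 and 10 with TMM scaling. Over all genes, 9.53% were higher and 4.46% lower at 4 h, or 4.29% and 7.41% with TMM scaling, which are the shares to set beside these 3 lists at that time.

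**Figure D5:**
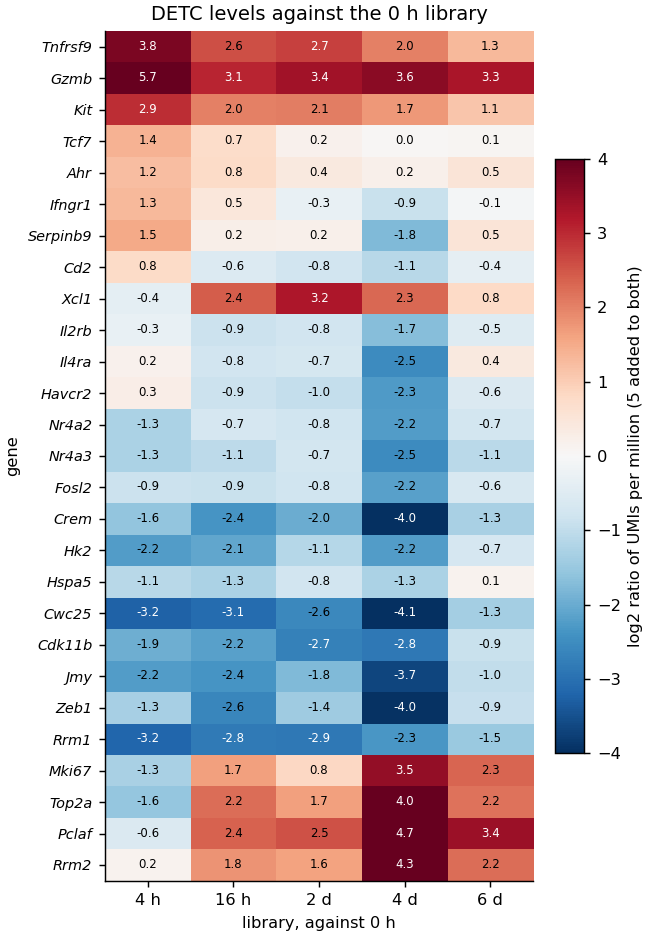
Log2 ratio of CPM (5 added to both) of 27 named genes in the DETC sum of each later library against 0 h, with red for higher and blue for lower. Tnfrsf9 and Gzmb stand highest at 4 h, Xcl1 at 2 d and the cycling genes at 4 d, while Cwc25, Crem, Jmy and Zeb1 stand lowest at 4 d.

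Mcl1, a pro-survival member of the BCL-2 family, was at 286, 273, 243, 240, 226 and 224 CPM, and the 6 d level was 0.782 times that at 0 h (0.645 to 0.947). Bcl2 ranged from 78.5 to 134 CPM and the effector gene Bax from 173 to 293 CPM, and Hrk had 0 UMIs. Psmb8, an immunoproteasome subunit, was at 71.8 CPM at 0 h and 266 at 4 d (248 to 285). Of the 14 measured genes of the MHC class I list, 4 were higher and 0 lower at 4 d, with a median log2 ratio of 0.67. With TMM scaling 3 of them were higher. Of the 13 measured genes of the BCL-2 family, 4 were higher and 0 lower at 4 d, with a median log2 ratio of 0.57, and with TMM scaling 2 were higher. Over all genes 19.6% were higher at 4 d, or 10.5% with TMM scaling, and the median log2 ratio was 0.33. Of 19 ribosome biogenesis genes, 8 were higher at 4 h in all members, against 9.53% of all genes. Without members over 1% keratinocyte UMIs 1 was higher and 2 were lower, against 7.22% and 3.85% of all genes.

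Levels of some genes with large ratios in the sums were several times lower without keratinocyte-bearing members. Krt6a, a keratin of wounded and follicular epithelium, was at 1.28 CPM at 0 h and 368 CPM at 4 h, and at 1.76 and 59.0 CPM without members over 1% keratinocyte UMIs. Mmp3 at 4 h, Epgn, Postn, Stfa3 and Cstdc5 at 2 d were at 71.7, 155, 153, 185 and 140 CPM in all members and at 2.68, 10.7, 10.0, 20.1 and 13.8 CPM without them. Id3 at 0 h was at 249 CPM in all members and 75.8 CPM without them, and at 4 h at 11.6 and 2.68 CPM, so that it was lower at 4 h than at 0 h either way. Ccl21a at 4 d held 330 of its 331 UMIs in 1 member, and Cst6 at 0 h 2008 of 2070. None of Tnfrsf9, Prf1, Xcl1 and Gzmb had its highest or lowest library changed by leaving those members out.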

How the data were processed

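Cells of dorsal skin were captured with the 10x Chromium 3′ kit. The authors deposited filtered matrices of raw UMI counts per gene and barcode, made with Cell Ranger 6.1.2 on mm10 per their processing notes, without normalization. Filters, gate and comparison cells followed the text. Langerhans cells had at least 2 UMIs of Cd207, at least 10 of MHC class II genes and at most 1 of the T cell genes. Remaining cells are all others. Barcodes in each library with the highest Scrublet scores (scanpy 1.11.5), at 0.8% per 1000 barcodes, were marked and kept in the main values.

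Counts summed over DETCs per library were tested with edgeR 4.0.16 in R 4.3.3: TMM, filterByExpr, time in hours as a spline basis (natural cubic, 3 degrees of freedom), a robust quasi-likelihood F test and Benjamini-Hochberg adjustment at 0.05 over all genes tested. DESeq2 1.42.0 was an alternative. The steps were tested on simulated data. A floor of 3 UMIs stood for 0 where a ratio needed one. Fewer than 20 Icos, Il7r and Ltb lymphocytes at 0 h meant that their planned time course test was not run, and Langerhans cells, chosen after the data were seen, took their place.

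Genes named were, by rule, the 5 most raised and 5 most lowered in each library against 0 h (at least 50 UMIs, intervals apart, at least 25% of the level in other cells), the 10 highest and 10 lowest against the other lymphocytes, and members of 32 lists by level, range or lineage. Other list members were named after their values were seen. The cells and lists were chosen with earlier results of these data known. Promoter sequences are from RefSeq (GRCm38.p6).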

Additional observations from a re-analysis of the deposited data

Results flagged for a closer look

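Barcodes that failed the limits on genes or mitochondrial UMIs are in no comparison above, and some of them met the UMI limits of the T cell rule. There were 5, 6, 4, 46, 33 and 6. Set against the members, these were 2.17%, 1.61%, 1.69%, 4.74%, 4.27% and 2.15% of all barcodes in the gate. Most at 2 d (41 of 46) and at 4 d (20 of 33) had more than 10% mitochondrial UMIs. Groups of 1 library could not be searched for samples that stand apart.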

How the results depend on the processing

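No paired analysis was possible because each time point had 1 library, so that the time points compared share only 1 replicate number. The test of the time course against the Icos, Il7r and Ltb lymphocytes, with its alternatives, was not run, since 0 h held 10 of them. The number of DETC genes called over time in edgeR was 0 in the reported fit and moved to 60 without a filter on counts, to 6 without members over 1% keratinocyte UMIs and to 1 without predicted doublets. DESeq2 called 27. Leaving out 1 library at a time gave 0 to 169 genes on the scale of hours, with 0 without 4 d, and on the log2(hours + 1) scale 23, 48, 75, 148, 0 and 86 genes without each library in order of time. Against Langerhans cells the count moved from 0 to 3 on ranks of time and to 0 to 25 without single libraries. The causes were not tested.

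The highest over the lowest DETC share was 3.65 (2 d over 16 h), and 4.48 when members had 0 UMIs of Icos, Il7r and Ltb. It stayed within 3.28 to 3.67 under 6 other settings. The highest over the lowest cycling share with 10 markers was 4.63, and 1.90 without thinning, 2.17 at 2000 UMIs, 1.86 with at least 1 UMI and 64.5 with 8 markers, where the highest library was 4 d in place of 6 d. Of 258 gene and library pairs against 0 h, 131 passed 2-fold with intervals apart. TMM scaling ended the call in 5 pairs, added it in 20 and left the other 233 as they were, called or not. Leaving out keratinocyte-bearing members ended it in 14 and added it in 8. Leaving out the richest member was run on only part of the 258 pairs. There it ended the call in 3, added it in 1 and left 69 as they were. Ratios turned without keratinocyte-bearing members for Cst6 (1.68), Hist1h2ae (0.700) and Top2a (0.742), all at 16 h, and without the richest member for Cst6 at 16 h (1.58). Values of 0.507 for Mmp3 at 4 h without the former and 0.0874 for Ccl21a at 4 d without the latter are set by the floor of 3 UMIs that stands for 0 at 0 h, and show no turn. Depth limits single cells, where a median member held 2339 UMIs, and 1 UMI in the 0 h sum was worth 1.28 CPM.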

Other observations

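Mgst1, a microsomal glutathione transferase, was at 3.85, 5.81, 23.1, 41.9, 182 and 25.1 CPM in DETCs in order of time, and at 207 CPM at 4 d without members over 1% keratinocyte UMIs. Langerhans cells had 12.8 CPM at 4 d and 193 CPM at 2 d, and the remaining cells 335 CPM at 4 d.

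Isg15, an interferon-induced ubiquitin-like protein, was at 248, 81.4, 58.4, 175, 66.3 and 336 CPM in DETCs. Ifit1, Ifit3, Rsad2 and Ifi44, which interferon also induces, were at or under 2.43 CPM in every library.

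Bach2, a repressor that holds T cells in a less differentiated state, was found in 39 of 366 members at 4 h (51 UMIs), against 2 of 225 at 0 h, 6 of 232 at 16 h and 31 of 925 at 2 d. At 4 d it was found in 25 of 739 members (58 UMIs), and at 6 d in 1 of 273.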
